A study of Bos taurus with 36 samples.

Results

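HMGCS1, IDI1, SQLE, LSS, DHCR7 and SREBF2 are 6 genes of cholesterol synthesis and of its transcriptional control. They were taken by symbol, through the bovine RefSeq names of the Entrez genes, from a table of 35092 genes, and all 6 had an entry and passed every filter on low counts. The table holds 36 RNA-seq libraries from 10 male bovine fetuses, collected on gestational Day 42, and the blood of the heifers that carried them, with 9 heart libraries, 9 libraries labelled gonads, 8 liver libraries and 10 maternal blood libraries. Embryos aged 7 days were placed in recipients on Day 7 (group ET_D7, 5 fetuses) or on Day 9 (group ET_D9, 5 fetuses) of the recipient's cycle, a model in which the recipient's uterus runs ahead of the embryo in the second group. All fetuses shared sex, embryo age at transfer and age at collection. The fetuses are numbered here from fetus 1, the lightest at 1.253 g, to fetus 10, the heaviest at 1.69 g. Fetuses 1 to 5 were ET_D7, weighing at most 1.37 g, and fetuses 6 to 10 were ET_D9, weighing at least 1.396 g, so weight and transfer group cannot be told apart beyond the spread within each group. Fetus 7 has no heart library, fetus 2 none labelled gonads, and fetuses 6 and 7 no liver library, because some samples failed the quality control of their RNA.

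Cells make cholesterol from acetyl-CoA through the mevalonate pathway and the sterol steps that follow it. When membrane sterol is low, SREBP2, the protein encoded by SREBF2, is carried from the endoplasmic reticulum by SCAP, cut by proteases in the Golgi and moved to the nucleus, where it raises transcription of the enzymes. The INSIG proteins hold the complex back when sterol is plentiful. The liver is a major site of synthesis, and it also exports sterol in lipoproteins and bile. Among the 6 genes, HMGCS1 encodes the cytosolic synthase that makes HMG-CoA, IDI1 the isomerase that supplies the second isoprene unit, SQLE the monooxygenase that oxidizes squalene, LSS the cyclase that makes lanosterol, and DHCR7 the reductase of the last step of one branch. None of the 6 takes up cholesterol itself. Uptake genes are given from a list of the pathway.

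Libraries held between 18231089 and 40812354 counts in total, and mitochondrially encoded genes took between 2.14% and 57.3% of it. Levels are counts scaled to a fixed library total (CPM) after TMM scaling, which sets the library totals on a common footing, over the 26 organ libraries or over the 10 blood libraries. The blood libraries came from another kit, so their levels stand beside those of the organs without comparison. CPM is not corrected for transcript length, so levels are compared between tissues and not between genes. In tissue samples, fewer cells of one type and less RNA per cell cannot be told apart. All 8 hepatocyte and all 7 erythroid markers were higher in every liver library than in every other organ library, and all 8 cardiomyocyte markers were higher in every heart library. The libraries labelled gonads went against their label, as 0 of 8 Sertoli and 0 of 7 Leydig and steroidogenic markers, 1 of 6 germ cell markers and 7 of 8 mesonephros and kidney markers were higher in every one of them than in every heart and liver library. They are called by their label here. Some liver genes jumped between fetuses, with 2 counts or fewer in part of the livers and 300 or more in the rest. There were 333 such genes, and 0 of the 6 were among them. The summed cardiomyocyte markers ranged from 13.1 to 1990 CPM between livers, with the highest sum in fetus 3. ACTC1 made up most of the highest sum, with a liver maximum of 1880 CPM and a liver mean of 366 CPM. No other marker on that list exceeded 56 CPM in a liver (MYH7), and NKX2-5 was at 0 in all of them.

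The first comparison asked where the 6 genes were expressed among the organs. The 5 enzymes were higher in every liver library than in every heart library and every library labelled gonads, by 1.88-fold to 6.06-fold. SREBF2 overlapped between the 3 organs and did not pass the test. How many of all genes separate as fully between these organs was not counted. By edgeR's quasi-likelihood test, 5 of the 6 genes were higher in the liver than in the heart, where 30.7% of the 25095 genes tested were higher and 27.9% lower. The same 5 were higher in the liver than in the libraries labelled gonads, where 33.6% of genes were higher and 30.8% lower. Against heart and labelled gonads together, these 5 genes were thus higher in the liver, as were 23.1% of all genes. Their median log2 fold change was, over all 6 genes, 1.86 against the heart and 1.06 against the libraries labelled gonads, beside a median of 0 over all genes tested in each comparison. The comparisons share libraries, so their values are not independent of each other.

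**Figure D1:**
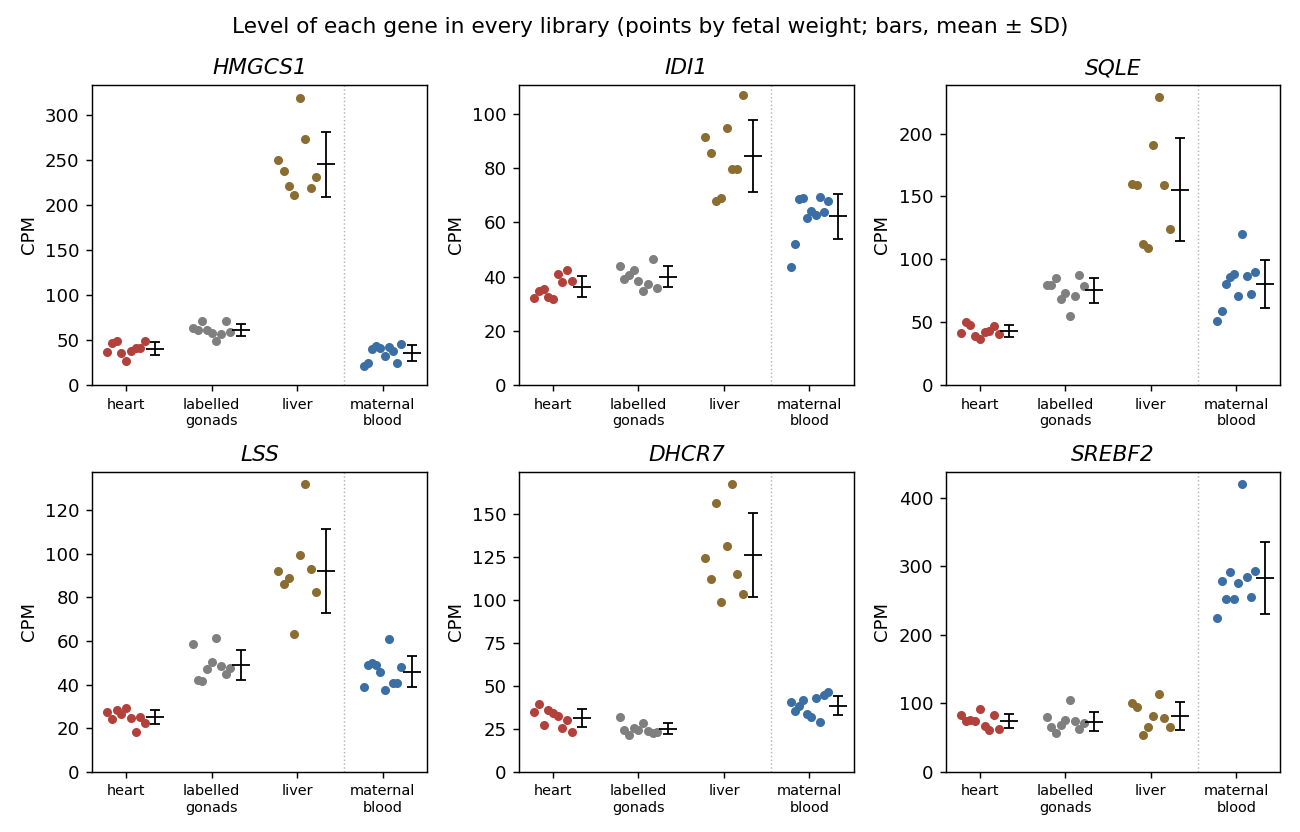
Level of each gene in CPM (vertical axes, starting at 0) in every heart, labelled gonad, liver and maternal blood library, with points in order of fetal weight within a tissue and bars for the mean and SD. A dotted line sets maternal blood apart because its libraries came from another kit. The liver points of the 5 enzymes lie above all heart and labelled gonad points, from HMGCS1 at 211 CPM or more to LSS at 63 CPM or more, while those of SREBF2 (54.1 to 114 CPM) overlap with both.

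HMGCS1 (Entrez 407767), the entry to the committed pathway, showed the largest difference from the heart of the 6 genes. Its lowest, median and highest levels were 26.7, 40.8 and 48.9 CPM in the heart, 49.2, 61.3 and 71.1 CPM in the libraries labelled gonads, and 211, 235 and 319 CPM in the liver. The 3 organs did not overlap, and the liver of fetus 5 was the highest library. The liver mean was 245 ± 35.7 CPM (SD, n = 8), against 40.5 ± 7.13 CPM for the heart and 61.3 ± 6.92 CPM for the libraries labelled gonads (SD, n = 9 each). The liver exceeded the heart by 2.60 on the log2 scale (standard error 0.114, adjusted p = 2.1e-17, edgeR). It exceeded the libraries labelled gonads 4.01-fold (log2 standard error 0.112, adjusted p = 3.87e-15, edgeR), and these exceeded the heart by 0.60 (standard error 0.107, adjusted p = 3.04e-05, edgeR). In maternal blood, the level was 35.4 ± 8.95 CPM (SD, n = 10).

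IDI1 (Entrez 514293) differed least from the heart among the 5 enzymes. It had 31.6, 35.6 and 42.5 CPM in the heart as the lowest, median and highest values, 34.8, 39.3 and 46.5 CPM in the libraries labelled gonads, and 67.9, 82.7 and 107 CPM in the liver. The liver lay apart, and the other organs overlapped. The log2 fold change of the liver was 1.22 over the heart (standard error 0.0946, adjusted p = 5.62e-12, edgeR) and 1.08 over the libraries labelled gonads (standard error 0.0941, adjusted p = 5.61e-11, edgeR). Heart and labelled gonads did not differ beyond their spread (log2 fold change 0.14, standard error 0.0912, adjusted p = 0.224, edgeR). Maternal blood held 62.3 ± 8.35 CPM (SD, n = 10).

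SQLE (Entrez 526535), a rate-limiting oxygen-dependent step of the sterol branch, and LSS (Entrez 615906), which acts on its product, were lowest in the heart and highest in the liver. SQLE had 36.4, 41.9 and 50.1 CPM in the heart as the lowest, median and highest values, 55.2, 78.7 and 87.7 CPM in the libraries labelled gonads, and 109, 159 and 229 CPM in the liver. LSS had 18.4, 25.1 and 29.3 CPM, then 41.7, 47.8 and 61.5 CPM, and in the liver 63, 90.4 and 132 CPM. Neither gene overlapped between any of the 3 organs, although the lowest liver library for LSS, that of fetus 4, came close to the highest labelled gonad library. The log2 fold change of SQLE was 1.85 for liver over heart, 1.04 for liver over labelled gonads and 0.81 for labelled gonads over heart (standard errors 0.127, 0.124 and 0.121). For LSS, these values were 1.87, 0.91 and 0.96 (standard errors 0.118, 0.115 and 0.113). All 6 of these differences passed the test, with a largest adjusted p of 2.4e-06 (edgeR).

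DHCR7 (Entrez 514745), the terminal reductase, was the one enzyme with its lowest mean in the libraries labelled gonads. It had 23.2, 32.5 and 39.1 CPM in the heart as the lowest, median and highest values, 21.2, 24.2 and 32.1 CPM in the libraries labelled gonads, and 98.5, 120 and 167 CPM in the liver. The liver lay apart by a wide margin, and the other organs overlapped. The log2 fold change of the liver was 2.01 over the heart (standard error 0.12, adjusted p = 1.89e-14, edgeR) and 2.33 over the libraries labelled gonads (standard error 0.121, adjusted p = 7.87e-16, edgeR). The libraries labelled gonads were lower than the heart (log2 fold change -0.32, standard error 0.114, adjusted p = 0.0204, edgeR), a call that was lost without fetus 2 (adjusted p = 0.0521) or without fetus 4 (adjusted p = 0.0651). Between labelled gonads and heart, 3 of the 6 genes were therefore higher (HMGCS1, SQLE and LSS), where 23.1% of all genes were, and 1 was lower (DHCR7), where 23.5% of all genes were.

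SREBF2 (Entrez 507102), the regulator, had 60.6, 74 and 91.8 CPM in the heart as the lowest, median and highest values, 56.3, 71.4 and 105 CPM in the libraries labelled gonads, and 54.1, 79.6 and 114 CPM in the liver. The 3 organs overlapped over most of their range. The log2 fold change of the liver was 0.14 over the heart (standard error 0.134, adjusted p = 0.398, edgeR) and 0.16 over the libraries labelled gonads (standard error 0.133, adjusted p = 0.31, edgeR). Labelled gonads and heart differed by -0.021 (standard error 0.13, adjusted p = 0.929, edgeR). This lack of a call depended on the processing. With DESeq2, the liver was higher by 0.29 over the heart (adjusted p = 0.0447) and by 0.31 over the libraries labelled gonads (adjusted p = 0.032), and with its size factors in edgeR by 0.29 (adjusted p = 0.051) and 0.31 (adjusted p = 0.0361). These size factors also raised the median of 18285 genes by 0.165 and 0.162 in the same comparisons. In maternal blood, SREBF2 reached 283 ± 52.8 CPM (SD, n = 10).

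**Figure D2:**
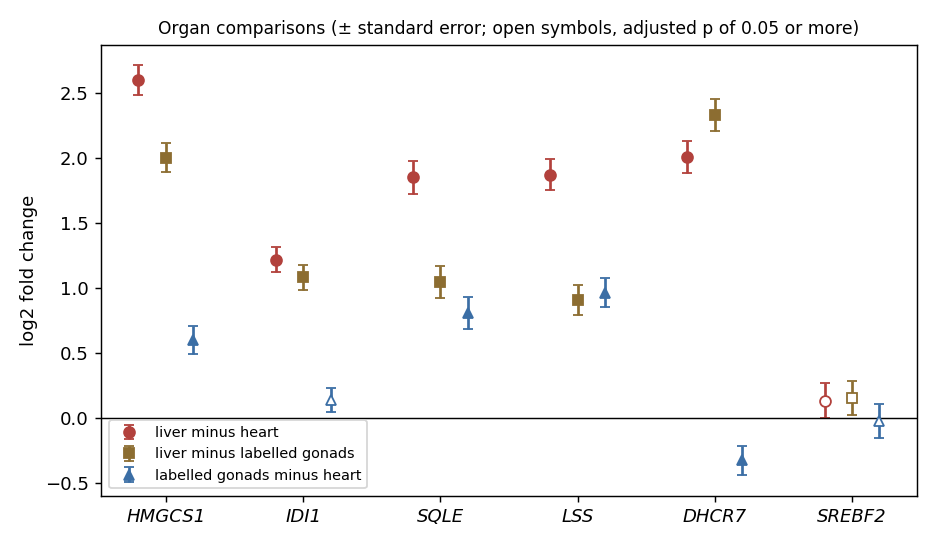
Log2 fold change of each gene (vertical axis) between liver and heart, liver and labelled gonads, and labelled gonads and heart, with the standard error of edgeR's fit. Open symbols have an adjusted p of 0.05 or more. The 5 enzymes lie between 0.91 and 2.60 in both liver comparisons, SREBF2 lies at 0.14 and 0.16, and DHCR7 is the one gene below 0 with a filled symbol.

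A ratio of an enzyme to SREBF2 in the same library does not depend on how library totals are scaled. It was therefore compared between organs of the same fetus, a comparison chosen after the levels were seen. In each of the 8 fetuses with both organs, the ratio of all 5 enzymes to SREBF2 was higher in the liver than in the heart. The mean difference of the log2 ratio between the organs was 2.51 ± 0.587 for HMGCS1, 1.92 ± 0.546 for DHCR7, 1.76 ± 0.278 for LSS, 1.72 ± 0.374 for SQLE and 1.14 ± 0.475 for IDI1 (SD, n = 8). Against the libraries labelled gonads, the ratios of all 5 enzymes were higher in the liver in all 7 fetuses, by means from 0.74 for SQLE to 2.17 for DHCR7. These ratios restate the levels above and are a description with no test. SREBF2 itself was higher in the liver than in the heart of the same fetus in 4 of 8 fetuses.

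The other genes of the pathway were read from lists of synthesis enzymes, SREBP regulators, uptake and transport genes, and genes of export, storage and sensing. Of 20 synthesis enzymes, which include the 5 described above, 16 were higher and 0 lower in the liver than in the heart. Of all genes, 30.7% were higher and 27.9% lower. The other 4 enzymes were not called, and the median log2 fold change of the 20 was 1.58. Large among the other enzymes were FDPS (3.44, standard error 0.148), which makes farnesyl diphosphate, TM7SF2 (3.25, standard error 0.186) and NSDHL (2.68, standard error 0.104), both of the post-lanosterol steps. FDPS reached 778 ± 199 CPM in the liver (SD, n = 8), and the heart held 71.9 ± 8.08 CPM (SD, n = 9). HSD17B7 (2.96, standard error 0.936) was at or near 0 in 4 of 8 livers and is described with the transfer groups. Against the libraries labelled gonads, 12 enzymes were higher in the liver and 3 lower, beside 33.6% and 30.8% of all genes. The remaining 5 were not called. Against each organ, 11 of the 20 were called higher in the liver, as were 23.1% of all genes. The 3 lower ones, CYP51A1, MSMO1 and SC5D, also act after lanosterol, with log2 fold changes of -0.66, -0.52 and -0.57.

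Of the 7 regulators, SREBF2 included, 3 were higher and 2 lower in the liver than in the heart, beside 30.7% and 27.9% of all genes. SREBF1, the related regulator that acts mainly on fatty acid synthesis, was higher by 2.43 (standard error 0.157), with 179 ± 54.2 CPM in the liver (SD, n = 8) and 33.3 ± 5.93 CPM in the heart (SD, n = 9). The retention factors moved apart, as INSIG1 was higher by 1.72 (standard error 0.145) and INSIG2 lower by a log2 fold change of -1.62 (standard error 0.206). MBTPS2, which encodes the second of the proteases that release SREBP, was also lower, by a log2 fold change of -0.73 (standard error 0.163). Against the libraries labelled gonads, 3 regulators were higher and 3 lower, beside 33.6% and 30.8% of all genes. All 4 named differences from the heart had the same sign there, at 2.64, 1.47, -1.61 and -2.10, and each passed the test in both comparisons, with a largest adjusted p of 0.000367 (edgeR).

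Of 8 uptake and transport genes, 6 were in the table, and 2 were higher and 1 lower in the liver than in the heart, beside 30.7% and 27.9% of all genes. LRP1, a receptor for lipoprotein remnants, was higher by 0.74 (standard error 0.126), NPC1 by 0.47 (standard error 0.152), and NPC2, which hands cholesterol to NPC1 in the lysosome, was lower by a log2 fold change of -0.36 (standard error 0.117). The call of NPC2 was lost with DESeq2 (-0.20, adjusted p = 0.103) and without fetus 3 (-0.18, adjusted p = 0.112). Against the libraries labelled gonads, 3 of the 6 genes were higher in the liver and 1 was lower, beside 33.6% and 30.8% of all genes.

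Of 10 genes of export, storage and sensing, 6 were higher and 2 lower in the liver than in the heart, beside 30.7% and 27.9% of all genes. Against the libraries labelled gonads, 6 were higher and 2 lower too, beside 33.6% and 30.8% of all genes. The higher sets were not the same, as CYP7A1 was called against the heart only. The 4 with the largest fold change over the heart were nearly absent there, so their levels are given in place of a fold. SOAT2, which esterifies cholesterol in hepatocytes, had 54.8 to 109 CPM in the liver and at most 0.24 CPM in the heart. ABCG8, a subunit of the sterol exporter, had 2.42 to 5.82 CPM in the liver and at most 0.112 CPM in the heart. Its partner ABCG5 ranged from 0 to 7.1 CPM between livers. The liver median of ABCG5, 0.0538 CPM, was below those of the heart (0.123 CPM) and the libraries labelled gonads (0.135 CPM), although it was called higher. CYP7A1, the rate-limiting enzyme of bile acid synthesis, reached at most 0.588 CPM in the liver.

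The second comparison asked whether the 6 genes varied together between the 8 liver libraries. Over the 15 pairs of genes, the median Pearson's r of log2 CPM was 0.50, and 14 pairs had a positive r. The same 6 genes had a median r of 0.13 with the other 16564 genes tested in the liver, and 21.5% of those r values were above 0.50. After adjustment over the 15 pairs, 3 pairs passed an exact two-sided permutation test. These were SQLE with LSS (r = 0.86, exact p = 0.00179, adjusted p = 0.0268), SQLE with SREBF2 (r = 0.86, exact p = 0.00759, adjusted p = 0.0441) and LSS with DHCR7 (r = 0.80, exact p = 0.00883, adjusted p = 0.0441). Their Spearman's rho was 0.83 (exact p = 0.0154), 0.86 (exact p = 0.0107) and 0.83 (exact p = 0.0154), and after adjustment 0 of the 15 pairs passed by rho. Without the 2 libraries farthest from the median of the first gene, those of fetuses 4 and 8, r fell to 0.72, 0.79 and 0.44 (exact p = 0.106, 0.0514 and 0.382). With 6 libraries left, none of the 3 had a p under 0.05, and the r of LSS with DHCR7 fell furthest. With TMM factors from the livers alone, the median r was 0.31 and 0 pairs passed, and with DESeq2's size factors the median was 0.37 and again 0 passed.

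The liver levels of these genes, fetus by fetus, ran as follows. SQLE had 160, 159, 112, 109 and 191 CPM in the livers of fetuses 1 to 5 and 229, 159 and 124 CPM in those of fetuses 8, 9 and 10. LSS had 91.9, 86.3, 88.9, 63 and 99.5 CPM in fetuses 1 to 5 and 132, 93.2 and 82.4 CPM in fetuses 8, 9 and 10. SREBF2 had 101, 94.2, 54.1, 65.9 and 81.4 CPM and then 114, 77.9 and 64.9 CPM. The liver of fetus 8 was the highest for these 3 genes and that of fetus 4 was the lowest for SQLE and LSS. DHCR7 had 124, 112, 156, 98.5 and 131 CPM in fetuses 1 to 5 and 167, 115 and 103 CPM in fetuses 8, 9 and 10, so that the liver of fetus 3 was high for DHCR7 and lowest for SREBF2. IDI1 departed from the others, with its highest level in fetus 10 (107 CPM) and a negative r with DHCR7 (-0.27).

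**Figure D3:**
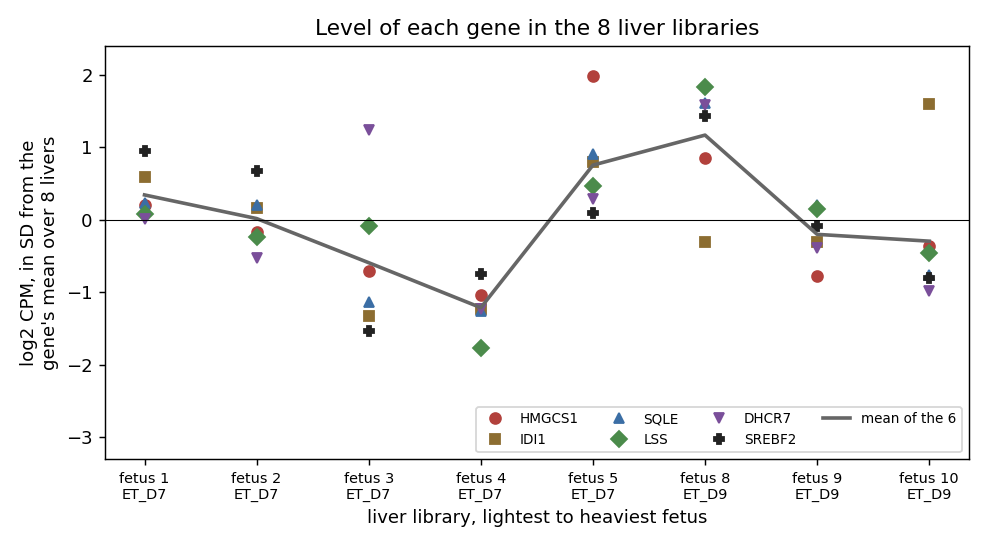
Level of each gene in the 8 liver libraries (horizontal axis, lightest to heaviest fetus, with transfer group), as log2 CPM in SD from the mean of that gene over the livers. The line is the mean of the 6 genes, which runs from -1.21 in fetus 4 to 1.17 in fetus 8, with fetus 5 next at 0.76.

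The livers with the 2 highest means, those of fetuses 8 and 5, also had the largest total counts, 34454772 and 34412562, against at most 25384305 in the other livers. Across the 8 livers, the mean of the 6 genes had an r of 0.85 with the total count, 0.75 with the summed hepatocyte markers and -0.37 with the mitochondrial share, given as descriptions over libraries that share their depth. The summed hepatocyte markers were 58700 CPM in fetus 8 and between 31300 and 53100 CPM in the other livers. Within the genes, IDI1 had an r of -0.93 with the mitochondrial share, whereas DHCR7 had 0.25. Without the livers of fetuses 5 and 8, an alternative chosen after seeing the data, the median r was 0.44 and 0 pairs passed. The part of depth or of hepatocyte content in the relation was not tested otherwise.

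Among the 11438 genes with a mean of at least 5 CPM in the liver, the 10 most like the mean of the 6 genes were ZNF572, POP1, ITM2C, MTMR3, CUTAL, CREBBP, UGGT1, SRRM2, DRAM2 and MARCHF8, with r from 0.99 to 0.97 over 8 libraries. None of them is on a list of the cholesterol pathway. Of the pathway genes outside the 6, FDFT1 (r = 0.91, rank 192) was close, while FDPS (r = 0.34) was far down. Over all 190 pairs of the 20 synthesis enzymes, the median r in the liver was 0.38, and 151 pairs were positive. In maternal blood, 151 pairs were positive too, with a median r of 0.43. The heart had 91 positive pairs (median r -0.098) and the libraries labelled gonads 96 (median r 0.0097).

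The same pairs were computed in the other tissues, and the difference between tissues was not tested. In maternal blood, the median r over the 15 pairs was 0.52 with 13 positive pairs, against a median of 0.0046 with other genes. HMGCS1 with SQLE (r = 0.86, permutation p = 0.00035, adjusted p = 0.00525) and HMGCS1 with IDI1 (r = 0.80, permutation p = 0.00574, adjusted p = 0.043) passed the test. Their Spearman's rho was 0.87 (permutation p = 0.00191) and 0.53 (permutation p = 0.124). The blood of the heifers with fetuses 1 and 2 was low for all 3 genes, at 21.2 and 24.5 CPM for HMGCS1, 43.6 and 52.1 CPM for IDI1, and 50.9 and 58.8 CPM for SQLE. Without them, r was 0.63 (exact p = 0.114) and 0.34 (exact p = 0.468) over the 8 libraries left. The blood totals fell into 5 libraries from 26602415 to 30393051 and 5 from 40516154 to 40812354, too few for an r within each.

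In the heart and in the libraries labelled gonads, the 6 genes split into HMGCS1, IDI1 and SQLE on one side and LSS, DHCR7 and SREBF2 on the other, a split noticed after the values were seen. Over all 15 pairs, the median r was -0.17 in the heart and -0.27 in the libraries labelled gonads. With other genes, the medians were -0.062 and 0.0058. All 3 pairs within each side had a positive r in both tissues, from 0.42 to 0.93. Of the 9 pairs across the sides, 9 were negative in the heart, with a median of -0.46, and 8 were negative in the libraries labelled gonads, with a median of -0.51. After centring each gene within its transfer group, 4 of the 9 were positive in the heart, namely IDI1 with LSS (0.35), with DHCR7 (0.14) and with SREBF2 (0.17) and SQLE with DHCR7 (0.026), and all 9 were negative in the libraries labelled gonads. In the liver, 8 of these 9 pairs were positive, as were 7 of 9 in maternal blood. In the heart, 0 of 15 pairs passed after adjustment over the tissue, and 2 had an unadjusted p under 0.05, HMGCS1 with SQLE (r = 0.76, exact p = 0.0142, rho = 0.72, exact p = 0.0369) and LSS with SREBF2 (r = 0.82, exact p = 0.00426, rho = 0.82, exact p = 0.0108). Adjusted over the 60 pairs of all 4 tissues, LSS with SREBF2 in the heart had p = 0.0426.

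In the libraries labelled gonads, 6 pairs passed. LSS with SREBF2 had the largest r, 0.93 (exact p = 4.41e-05, adjusted p = 0.000661, rho = 0.98, exact p = 4.96e-05), and it still had an r of 0.91 without the 2 farthest libraries (exact p = 0.00397). SREBF2 had 80.6 CPM in fetus 1, 56.3 CPM in fetus 4 and 105 CPM in fetus 7, where LSS had 58.4, 41.7 and 61.5 CPM. SREBF2 ran against HMGCS1 (r = -0.87, exact p = 0.00395, adjusted p = 0.0198, rho = -0.72, exact p = 0.0369) and against SQLE (r = -0.84, exact p = 0.00891, adjusted p = 0.0223, rho = -0.62, exact p = 0.0857). The other 3 were HMGCS1 with SQLE (r = 0.91), HMGCS1 with IDI1 (r = 0.81) and LSS with DHCR7 (r = 0.82), with adjusted p of 0.00488, 0.0223 and 0.0223 by the exact permutation test and rho of 0.90, 0.87 and 0.67. The library of fetus 7 was the highest for SREBF2 and LSS and the lowest for HMGCS1, IDI1 and SQLE, and without it 1 pair passed. It also had the largest mitochondrial share of the libraries labelled gonads, 7.23% against 3.31% to 4.65%, whose part in the relation was not tested.

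**Figure D4:**
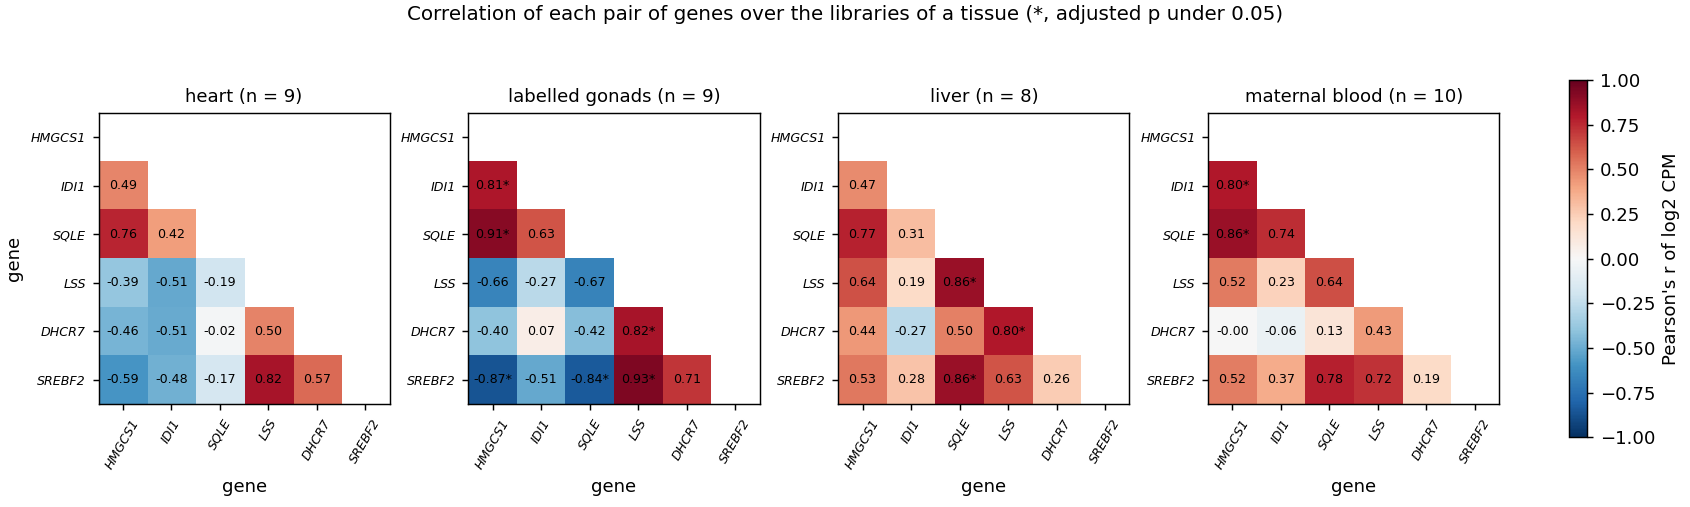
Pearson's r of log2 CPM for each of the 15 pairs of genes in the 9 heart, 9 labelled gonad, 8 liver and 10 maternal blood libraries (color scale from -1 to 1), with a star where the permutation p adjusted over the 15 pairs was under 0.05. The heart and labelled gonad panels hold a block of negative values between HMGCS1, IDI1 or SQLE and LSS, DHCR7 or SREBF2, while 14 of 15 values in the liver are positive.

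The third comparison asked whether the 6 genes changed with fetal weight, which the study relates to transcript levels in each organ and in the mother's blood. In no tissue did any of them pass the test on a linear slope, on a smooth term (a natural cubic spline with 3 degrees of freedom) or on the transfer group, with edgeR's quasi-likelihood test adjusted over all genes. In the liver, 0 of 6 passed where 2.23% of 16605 genes passed on the slope, 1.81% on the smooth term and 4.14% on the transfer group. In the heart, 0 of 6 passed where 6.78% of genes passed on the slope, 0% on the smooth term and 0.0492% on the transfer group. In the libraries labelled gonads, the shares of all genes were 0%, 0% and 0.354%. In maternal blood, they were 0%, 0.129% and 0%. At an unadjusted p under 0.05, the 6 genes gave 1 slope in the heart (DHCR7), where 29.1% of all genes passed, 1 transfer group difference in the heart (IDI1), where 24.6% passed, and 2 smooth terms in maternal blood (IDI1 and SQLE), where 9.77% passed.

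The liver slopes lay on both sides of 0, each within 1 standard error of it. Per 0.1 g of fetal weight, the log2 change was 0.021 for LSS (standard error 0.053), 0.0146 for IDI1 (standard error 0.0474), 0.00436 for SQLE (standard error 0.0684), -0.0368 for DHCR7 (standard error 0.0572), -0.0413 for HMGCS1 (standard error 0.0471) and -0.0455 for SREBF2 (standard error 0.0628). Their adjusted p ranged from 0.716 to 0.985 (edgeR). The ET_D9 livers differed from the ET_D7 livers by log2 fold changes from -0.16 for HMGCS1 (standard error 0.153) to 0.13 for LSS (standard error 0.169), with a smallest adjusted p of 0.663 (edgeR). No slope of these genes differed between a pair of organs after adjustment. The smallest of these 18 adjusted p was 0.361, for LSS in the liver against the heart. Among all genes, 1608 slopes differed between liver and heart, 1002 between liver and labelled gonads, and 3 between labelled gonads and heart. With so few genes called in the last of these comparisons, the lack of a call there says little.

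In the heart, DHCR7 had the steepest slope of the 6 genes, -0.12 per 0.1 g (standard error 0.0424, p = 0.0196, adjusted p = 0.104, edgeR). Its levels were 34.8, 39.1, 26.9, 35.7 and 34 CPM in fetuses 1 to 5 and 32.5, 25.7, 30.2 and 23.2 CPM in fetuses 6, 8, 9 and 10. Without fetus 3, whose heart was low for its weight, the slope passed (-0.13, adjusted p = 0.0331). The share of all heart genes that passed in that fit was not counted. IDI1 in the heart had 31.6 to 35.6 CPM in the 5 ET_D7 fetuses and 38.1 to 42.5 CPM in the 4 ET_D9 fetuses, groups that do not overlap. How many of all heart genes separate in this way was not counted, and 24.6% of them had an unadjusted p under 0.05 on the transfer group (edgeR). The log2 fold change of IDI1 was 0.27 (standard error 0.0899, p = 0.0145, adjusted p = 0.115, edgeR), and with DESeq2 it passed (0.29, adjusted p = 0.00762). The share of all heart genes that passed with DESeq2 was not counted either. The mitochondrial share of the heart libraries was 45.1%, 57.3%, 23.5%, 41.5% and 40.8% in fetuses 1 to 5. In fetuses 6, 8, 9 and 10 it was 39%, 25.5%, 28.5% and 17.1%. The heart of fetus 3, low in DHCR7 for its weight, thus had a low share for its weight too. The part of this share in the values was not tested beyond leaving mitochondrially encoded genes out, which changed no call.

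In maternal blood, all 6 slopes were positive, from 0.00653 for LSS to 0.12 for SQLE per 0.1 g, and 8293 of 16284 genes had a positive slope. SQLE (standard error 0.0626, adjusted p = 0.581, edgeR) and IDI1 (0.0719, standard error 0.0397, adjusted p = 0.59, edgeR) were the steepest relative to their error. Their smooth terms had p = 0.0109 for SQLE and 0.00868 for IDI1, with adjusted p of 0.389 and 0.364 (edgeR). The heifers of the 2 lightest fetuses had the lowest SQLE and IDI1 of the 10, as given above, and the other 8 were at 71 CPM or more for SQLE and 61.7 CPM or more for IDI1.

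**Figure D5:**
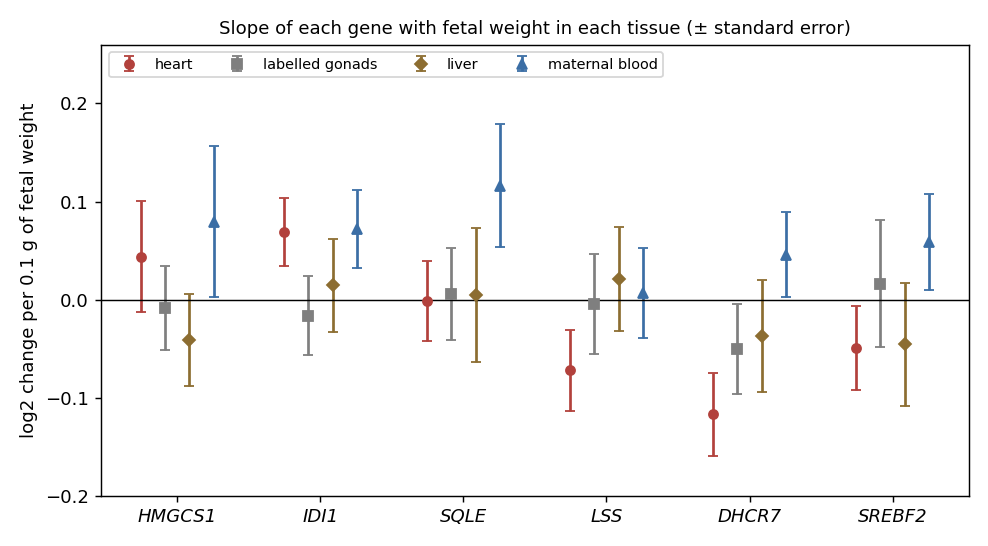
Slope of each gene with fetal weight (vertical axis, log2 change per 0.1 g) in the heart, labelled gonads, liver and maternal blood, with the standard error of edgeR's fit. The values run from -0.12 for DHCR7 in the heart to 0.12 for SQLE in maternal blood, and 0 of the 24 passed the adjusted test.

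Among the other pathway genes, PMVK and HSD17B7 passed in these tests. PMVK, the phosphomevalonate kinase, rose with weight in the heart by 0.22 per 0.1 g (standard error 0.0545, adjusted p = 0.0456, edgeR). Fetuses 1 to 5 had 4.11 to 6.92 CPM and the heavier ones 6.86 to 10.1 CPM. With the transfer group as a covariate it had an adjusted p of 0.699, and without fetus 10 an adjusted p of 0.354. Leaving out 1 heart at a time ended the call for 8 of the 9 hearts, while the slope stayed between 0.20 and 0.23. HSD17B7, the 3-keto reductase, was lower in the ET_D9 livers (adjusted p = 0.0294, edgeR), a call lost without fetus 8 (adjusted p = 0.118), fetus 9 (0.14) or fetus 10 (0.112), each of which leaves 2 livers in that group with about as large a fitted difference. It had 15.4, 29.1, 41.3, 0 and 24.9 CPM in the livers of fetuses 1 to 5 and 1, 0 and 1 counts in those of fetuses 8, 9 and 10. Its liver values were thus either near 0 or above 15 CPM, a jump of the kind seen in the 333 liver genes described above, and fetus 4 of the ET_D7 group was at 0 too.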

How the data were processed

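Per the labels and the study's methods, the authors extracted RNA from whole organs and blood, prepared stranded libraries (TruSeq mRNA for organs, SMARTer for blood), trimmed paired reads with Trimmomatic, mapped them with STAR 2.7.0b to ARS-UCD1.3 and counted them per gene with featureCounts (Subread 2.0.3). They deposited whole-number counts without normalization. Counting options for strand and for reads that map to several genes are not given in the sources used here, so genes with near-identical copies are uncertain. Of 35092 genes, 31630 matched a RefSeq symbol. Of the listed pathway genes, 2 had no entry that could be used, and results on some others are not reported here.

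Counts were fitted in R 4.3.3 with edgeR 4.0.16 (quasi-likelihood, TMM, Benjamini-Hochberg over all genes, threshold 0.05), the 26 organ libraries together for genes with any count, and each tissue alone for weight and transfer group where 4 or more libraries held 10 or more counts. Log2 CPM used a prior count of 2. Correlations were tested by all permutations of 8 or 9 libraries, or by 100000 for blood. Alternatives used DESeq2 1.42.0, other scalings, filters and fetuses left out. The fits were tested on simulated data. Organs of 1 fetus are paired by animal, and deviations of same-fetus libraries had a median r between 0.00981 and 0.0493 over pairs of organs. Each fetus gave 1 library per tissue, so p-values measure the spread between animals. The genes and lists were chosen with earlier results of these data known. Of each pathway list, the 4 genes with the largest fold change between liver and heart and those called in the weight tests are named, with the 10 genes most like the mean of the 6.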

Additional observations from a re-analysis of the deposited data

Results flagged for a closer look

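The 6 genes in 4 tissues give 24 groups of libraries, and in 2 of them, both of SREBF2, 1 library stood apart by Dixon's criterion. Chance flags about 1 group in 20. SREBF2 was at 105 CPM in the library labelled gonads of fetus 7, against 56.3 to 80.6 CPM in the other 8, a gap of 0.501 of the whole range. It was at 420 CPM in the blood of the heifer that carried fetus 7, against 224 to 293 CPM in the other 9, a gap of 0.648 of the range. Both libraries belong to the same pregnancy, whose fetus has no heart or liver library. In that blood library SQLE (120 CPM) and LSS (60.7 CPM) were also the highest of the 10, while HMGCS1 (42.2 CPM) and IDI1 (62.8 CPM) were not.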

How the results depend on the processing

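Of 261 recomputed counts and medians, 236 stayed within 1.5 times the reported count or within the spread of the median. Most of the 261 recompute a count of 0 members called on weight or transfer group. In several of those tests 0% of all genes passed, so a count that stayed at 0 there says little. Under every alternative run, the 5 enzymes were higher in the liver than in heart and labelled gonads. With the fetus as a replicate block, the members called were 5, 5 and 4 in the 3 organ comparisons, as without it, and the block changed no other call of the 6 genes; HMGCS1 was higher in the liver than in the heart by 2.59. The number of liver pairs called fell from 3 to 0 by Spearman's rho, with TMM over the liver alone (median r 0.314), with DESeq2 size factors (median r 0.37), without the 2 farthest fetuses and without fetuses 5 and 8, and to 1 without mitochondrially encoded genes. Leaving out 1 fetus at a time gave 0 to 4 liver pairs and a median r of 0.335 (without fetus 4) to 0.698 (without fetus 3). The number of liver pairs was 0 without fetus 1, 4, 8, 9 or 10. In the libraries labelled gonads, 3 pairs were called by rho, 0 without the 2 farthest fetuses, and 1 (without fetus 7) to 11 (without fetus 1) with 1 fetus left out. Members called in the heart went from 0 to 1 on the transfer group with DESeq2 (IDI1) and ranged from 0 to 1 on the slope with 1 fetus left out (DHCR7, without fetus 3). The shares of all heart genes called in those runs were not counted. The causes were not tested.

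Values near 0 changed sign. SREBF2 in the libraries labelled gonads against the heart ran from -0.101 to 0.0653 with 1 fetus left out. With the transfer group as a covariate, the slope was -0.0121 for IDI1 in the heart and 0.0655 for HMGCS1, -0.253 for SQLE and -0.175 for LSS in the liver, where that of SREBF2 went from -0.0455 to -0.446 (standard error 0.166, adjusted p = 0.664). Liver slopes with 1 fetus left out ran from -0.0276 to 0.0963 for SQLE, -0.00447 to 0.0956 for LSS, -0.0192 to 0.038 for IDI1, -0.058 to 0.0387 for DHCR7 and -0.0743 to 0.0253 for SREBF2. The number of animals per tissue, 8 to 10, limits the slopes that could be detected.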
